A study of Homo sapiens with 12 samples.

Results

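Transcript levels of DEPP1, a small protein induced by FOXO transcription factors, and of 9 genes of FOXO and insulin signalling were followed in HepG2 cells with altered TST expression. The 9 other genes were the insulin receptor INSR, the receptor substrates IRS1 and IRS2, the transcription factors FOXO1, FOXO3 and FOXO4, the secreted binding protein IGFBP1 and the alpha-arrestins TXNIP and ARRDC4. DEPP1 and these genes were taken by name from tables of 57500 genes, of which they make up 10. DEPP1 was chosen by its measured values, having fallen when TST was silenced. The other 9 were named with earlier results of these data known, so counts of members called are not free of that choice. HepG2 is a hepatocellular carcinoma line, and TST (thiosulfate sulfurtransferase, or rhodanese) transfers sulfur to cyanide and so detoxifies it. RNA-seq was performed on unmodified cells (WT), on cells carrying a short hairpin RNA against TST (shTST) and on cells overexpressing TST (overTST). Each group had 4 replicate libraries. All 12 cultures were kept for 24 h in normal medium with 400 µM glycine and received no further agent. The overTST line was made with a lentiviral vector in which the CMV promoter drives a codon-optimized TST coding sequence and the shTST line with a commercial shRNA plasmid packaged into lentivirus in the same way. Transduced cells were selected with blasticidin. Whether these lines are clones or pools is not stated in the sources used here. No group with an empty vector or a scrambled hairpin is among the samples, so transduction and TST level cannot be told apart in the comparisons with WT.

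Insulin binding activates the receptor kinase INSR, which phosphorylates IRS1 and IRS2, and these recruit phosphatidylinositol 3-kinase and thereby activate AKT. AKT phosphorylates FOXO1, FOXO3 and FOXO4, which then leave the nucleus, so that genes they switch on in the fasted liver, IGFBP1 among them, are lowered by insulin. TXNIP binds thioredoxin, and both TXNIP and its relative ARRDC4 restrain glucose uptake and are induced by the glucose-sensing factors MondoA and ChREBP. Read counts measure transcripts and carry no information on phosphorylation or on where a FOXO protein lies in the cell.

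The members split into sets with different patterns. In shTST cells IGFBP1 and FOXO1 were lower than in WT cells, and IGFBP1 decreased by 53.5%, while TXNIP was 25.4% and ARRDC4 47.7% higher. DEPP1, which was chosen for this contrast, was 55.3% lower. In overTST cells 7 of the 10 members were lower than in WT, where 18.2% of all genes were called lower and 33.9% were called in all. With the gene length trend removed 5 remained lower, where 2058 of 14421 genes were called lower. Without that removal IRS2 decreased by 70.2%, and ARRDC4, IGFBP1 and DEPP1 did not pass the test. In the direct comparison of the silenced with the overexpressing cells, 7 of 9 members passed, where 33.0% of all genes did (16.9% higher and 16.1% lower), and IGFBP1 alone among these 7 was lower in shTST. Those shares of all genes are not matched for gene length, with which this comparison also moved.

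The upstream sequences of DEPP1, TXNIP and ARRDC4 are given because the first pair each hold the FOXO recognition core GTAAACA and the third holds the E-box CACGTG, the core of the elements bound by MondoA and ChREBP. They are the 250 bases before the RefSeq transcription start (assembly GRCh38.p14), read 5′ to 3′ on the gene's strand, with the motif in capitals. TXNIP has a further annotated start, whose window is not shown.
DEPP1 (chr10:44978810-44979059, minus strand): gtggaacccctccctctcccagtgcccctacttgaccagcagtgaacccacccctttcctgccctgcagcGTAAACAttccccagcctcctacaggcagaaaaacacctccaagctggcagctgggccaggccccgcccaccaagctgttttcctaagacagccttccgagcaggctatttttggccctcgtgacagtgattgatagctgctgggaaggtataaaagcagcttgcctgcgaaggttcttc
TXNIP (chr1:145996580-145996829, minus strand): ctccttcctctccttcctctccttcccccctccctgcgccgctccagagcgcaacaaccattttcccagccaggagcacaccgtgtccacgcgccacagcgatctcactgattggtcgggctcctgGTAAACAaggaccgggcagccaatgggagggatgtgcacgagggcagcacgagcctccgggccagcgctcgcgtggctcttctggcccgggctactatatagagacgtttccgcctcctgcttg
ARRDC4 (chr15:97960453-97960702, plus strand): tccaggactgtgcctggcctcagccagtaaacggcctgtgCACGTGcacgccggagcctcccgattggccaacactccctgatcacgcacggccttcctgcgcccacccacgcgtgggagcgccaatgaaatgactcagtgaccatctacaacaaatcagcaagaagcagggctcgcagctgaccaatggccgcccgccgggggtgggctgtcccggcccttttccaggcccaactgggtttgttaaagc
The search covered 300-base windows running from 250 bases before to 50 bases after each start, on both strands, and no matched site overlapped a site of another motif. GTAAACA was present in 3.42% of 35116 RefSeq windows and in 3 of the 13 windows of the 9 member genes found there. IGFBP1 had no window and was not searched. The GTAAACA matches lay at positions -180 to -174 from the start in DEPP1, -124 to -118 in TXNIP and 24 to 30 in FOXO4. The insulin response core CAAAACA was present in 4.92% of all windows and in 1 of the 13 member windows. This was that of IRS2, on the opposite strand at positions -40 to -34. CACGTG was present in 7.26% of all windows and in 2 of the 13 member windows. These were those of ARRDC4, at positions -210 to -205, and IRS1, at positions 36 to 41. A match describes letters in the window and not occupancy by a factor. Only these exact letters were sought, so windows without a match, such as those of TXNIP for CACGTG, may still hold a variant.

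Library totals were 28866175 to 45120508 counts in WT, 27527854 to 33865386 in shTST and 22911380 to 27414142 in overTST. TST itself was at 49.0 ± 2.59 CPM (counts scaled by the normalized library size, mean ± SD, n = 4) in WT, 34.1 ± 1.62 in shTST and 57.9 ± 4.90 in overTST. It was thus 0.52 lower on the log2 scale in shTST than in WT without overlap of the groups, and 0.24 higher in overTST with overlap (edgeR adjusted p = 0.00384, and 0.201 with the gene length trend removed). How far reads of the introduced codon-optimized sequence were counted is not known, so these values do not measure the overexpression. The summed CPM of 10 hepatocyte-lineage markers, among them ALB and AFP, was 22349 to 29931 over the 12 libraries. That of 8 markers of other cell types was 7.80 to 10.1. Of the leukocyte markers among these 8, PTPRC was at 0 in 11 libraries and CD14 at 4.11 to 6.09 CPM over all 12. The endothelial marker PECAM1 was at 1.87 to 2.39 CPM in WT and 1.41 to 1.80 in shTST. Every overTST library lay above these PECAM1 ranges, and the cause was not tested. Mitochondrial transcripts took 6.91 to 11.98% of counts in WT, 6.84 to 8.65% in shTST and 10.8 to 11.7% in overTST; WT replicate 4 had the highest share, and its part in the results was not tested beyond leaving it out.

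The 10 genes lie on 8 autosomes and the X chromosome, and their positions in GRCh38 follow from the gene models in the deposited tables. INSR (ENSG00000171105) spans chr19:7112255-7294034, IRS1 (ENSG00000169047) chr2:226731317-226799759 and IRS2 (ENSG00000185950) chr13:109752698-109786568, all on the minus strand. FOXO1 (ENSG00000150907) spans chr13:40469953-40666597 on the minus strand, FOXO3 (ENSG00000118689) chr6:108559835-108684774 and FOXO4 (ENSG00000184481) chrX:71096197-71103535 on the plus strand. IGFBP1 (ENSG00000146678) spans chr7:45888357-45893668 on the plus strand and DEPP1 (ENSG00000165507) chr10:44970981-44978810 on the minus strand. TXNIP (ENSG00000265972) spans chr1:145992435-145996600 on the minus strand and ARRDC4 (ENSG00000140450) chr15:97960698-97973838 on the plus strand. All values are gene sums over exons. Of the 2979 exonic bases of DEPP1, 695 are also exonic in RASSF4 on the opposite strand, and as the strand setting of the counting is not stated, reads from that stretch cannot be assigned with certainty.

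On a scale corrected for exonic length, IGFBP1 was the most abundant member in WT at 70.9 ± 16.8 CPM per kilobase (SD, n = 4). DEPP1 followed at 6.95 ± 1.37, TXNIP at 5.68 ± 0.520, INSR at 5.52 ± 0.226 and IRS1 at 5.36 ± 0.536 CPM per kilobase. FOXO3 was at 4.97 ± 0.287, FOXO1 at 4.54 ± 0.316 and FOXO4 at 4.24 ± 0.419 CPM per kilobase, and from DEPP1 to FOXO4 each neighbour in this order overlapped the next. ARRDC4, at 0.557 ± 0.128 CPM per kilobase, and IRS2, at 0.175 ± 0.0310, stood below them without overlap. IGFBP1 led and IRS2 was lowest in the other groups as well. DEPP1, second in WT, was eighth of the 10 in shTST at 3.09 CPM per kilobase and second again in overTST at 7.03.

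**Figure D1:**
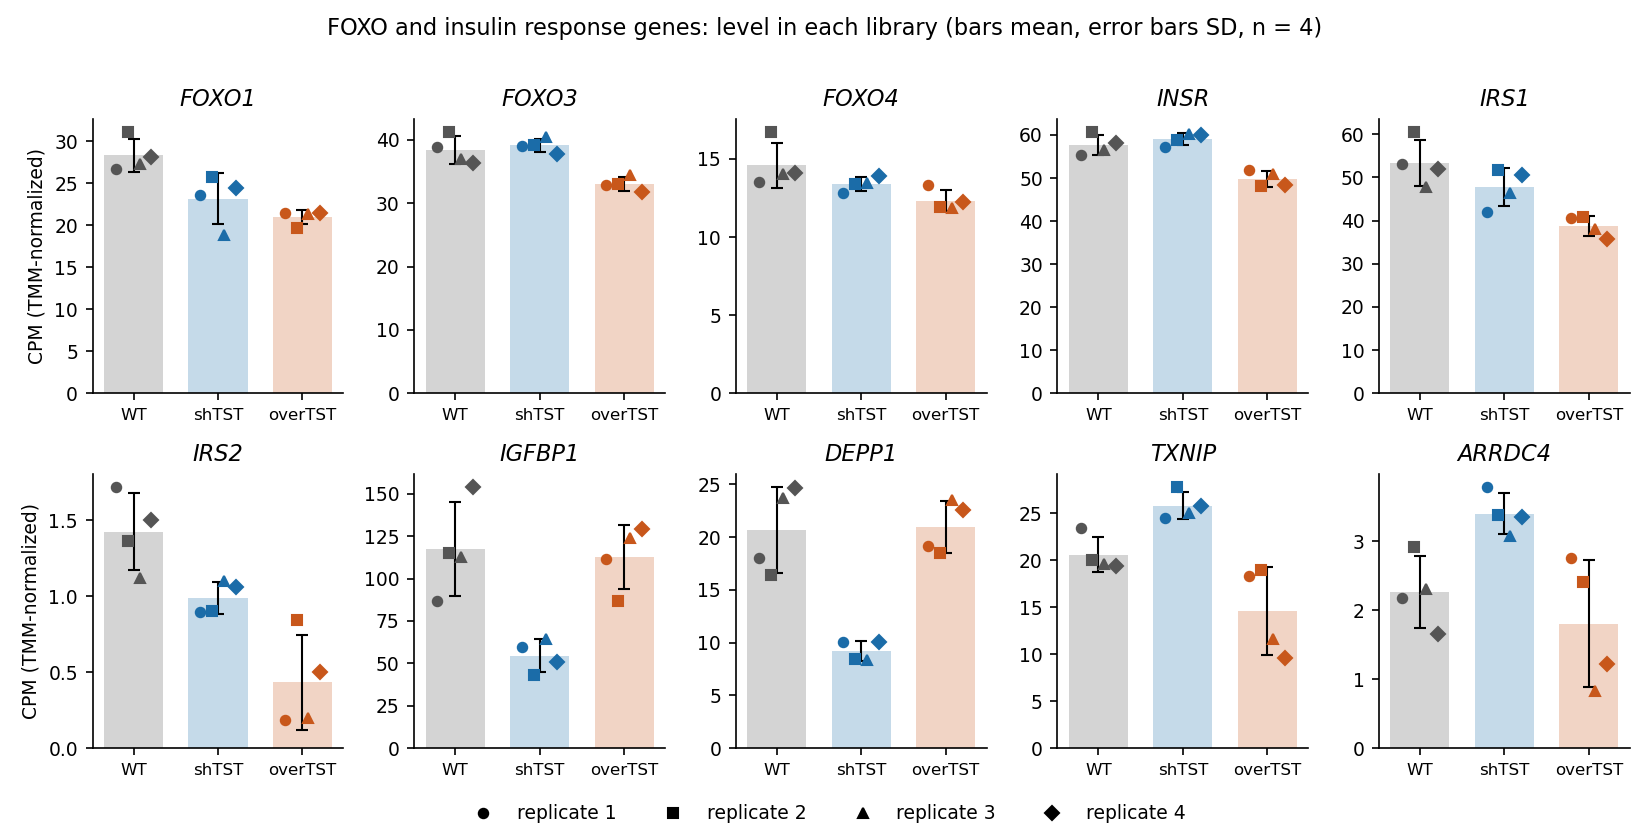
CPM of each of the 10 genes in every library (points) of WT, shTST and overTST, with the group mean (bar) and SD (error bar, n = 4), each panel on its own linear axis from 0. DEPP1 and IGFBP1 are lowest in shTST (means 9.22 and 54.5 CPM), IRS2 is lowest in overTST (mean 0.433 CPM).

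Among the upstream components, INSR was measured at 55.3, 60.7, 56.4 and 58.2 CPM in WT, 57.3, 58.9, 60.3 and 60.0 in shTST and 51.8, 48.2, 51.1 and 48.3 in overTST. The WT and shTST values overlapped, and every overTST value lay below all of the others. The log2 difference was 0.04 for shTST against WT (95% interval -0.06 to 0.13) and -0.21 for overTST against WT (SE 0.0545, adjusted p = 0.00409, edgeR's quasi-likelihood test with Benjamini-Hochberg adjustment over all genes tested). The overTST value became -0.06 with an adjusted p of 0.431 (edgeR) when the trend of the counts on gene length was removed.

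IRS1, an adaptor that links the receptor to phosphatidylinositol 3-kinase, was at 53.1, 60.5, 47.7 and 51.9 CPM in WT, at 42.1, 51.8, 46.3 and 50.5 in shTST and at 40.6, 40.8, 37.9 and 35.7 in overTST. The overTST libraries were all below the lowest WT library, while shTST overlapped WT. IRS1 fell by 0.46 on the log2 scale in overTST (SE 0.0678, edgeR adjusted p = 1.5e-05). Over 19 alternatives this difference was -0.31 at the weakest, with the call kept. In shTST its log2 difference of -0.16 (95% interval -0.31 to -0.02) had an edgeR adjusted p of 0.107 and passed under 3 of 19 alternative settings.

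IRS2, the related adaptor and itself a gene that FOXO factors switch on in liver, was barely expressed, with 33 to 62 counts in WT, 25 to 38 in shTST and 5 to 20 in overTST. Its levels were 1.72, 1.36, 1.12 and 1.503 CPM in WT, 0.895, 0.904, 1.10 and 1.06 in shTST and 0.187, 0.847, 0.197 and 0.500 in overTST. The groups did not overlap, with overTST lowest, although overTST replicate 2 came close to the shTST libraries. The log2 difference of overTST against WT was -1.75 (SE 0.328, 95% interval -2.42 to -1.07, edgeR adjusted p = 0.000224), the lowest log2 value of the 14421 genes tested. In shTST it was -0.52 (95% interval -0.95 to -0.09), which did not pass (edgeR adjusted p = 0.0904). As these are bulk RNA samples, fewer cells with a transcript and fewer transcripts per cell cannot be told apart.

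FOXO1, the main FOXO factor of insulin-responsive liver cells, was at 26.7, 31.1, 27.3 and 28.2 CPM in WT, at 23.5, 25.8, 18.8 and 24.5 in shTST and at 21.5, 19.7, 21.4 and 21.4 in overTST. Every modified library was below the lowest WT library, whichever the direction in which TST was changed. The decrease was 0.30 on the log2 scale in shTST and 0.43 in overTST, and both passed edgeR's test. The log2 difference in shTST had an SE of 0.0790 and an adjusted p of 0.0131, and that in overTST an SE of 0.0689 and an adjusted p of 3.77e-05 (edgeR's quasi-likelihood test). Both contrasts use the same WT libraries. Without shTST replicate 3, the lowest of its group, the decrease was 0.20 and the adjusted p 0.0536 (edgeR). Directly compared, shTST and overTST differed by 0.14 in log2 (95% interval -0.03 to 0.30), which did not pass.

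FOXO3, the broadly expressed member of the family, was at 36.4 to 41.3 CPM in WT, 37.8 to 40.4 in shTST and 31.8 to 34.5 in overTST. The overTST libraries were below all others, and shTST lay within the WT range. FOXO3 decreased by 0.22 on the log2 scale in overTST (SE 0.0610, edgeR adjusted p = 0.00793), and with the length trend removed the difference was -0.11 (adjusted p = 0.150). In shTST the difference was 0.03 (95% interval -0.09 to 0.14). FOXO4, the shortest FOXO transcript measured here, was at 13.5 to 16.7 CPM in WT, 12.8 to 13.9 in shTST and 11.8 to 13.3 in overTST. Its overTST values lay just under the WT range, and its shTST values overlapped it. The decrease in overTST was 0.25 in log2 (SE 0.0853, edgeR adjusted p = 0.0276), and the call was lost without WT replicate 2 (adjusted p = 0.135) or overTST replicate 2 (0.0707), 3 (0.0812) or 4 (0.0566). The shTST value of -0.13 (95% interval -0.29 to 0.03) did not pass.

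IGFBP1 binds insulin-like growth factors in the circulation, and insulin lowers its transcription in liver through FOXO factors. It was at 86.9, 115, 113 and 154 CPM in WT, at 59.8, 42.8, 64.6 and 50.7 in shTST and at 112, 86.8, 124 and 129 in overTST. The highest shTST library was below the lowest library of either other group, and WT and overTST overlapped widely. The log2 difference of shTST against WT was -1.10 (SE 0.121, 95% interval -1.35 to -0.85, edgeR adjusted p = 4.45e-06), the twelfth lowest of the 14584 genes tested. Without WT replicate 4, which had the highest IGFBP1 level and the highest mitochondrial share of WT, it was -0.94 (adjusted p = 1.3e-06). Against overTST the difference was -1.05 (SE 0.129, edgeR adjusted p = 2.05e-06). For overTST against WT it was -0.05 (95% interval -0.29 to 0.18, adjusted p = 0.755), its sign depended on which library was left out, and it was -0.21 with the length trend removed (adjusted p = 0.167).

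DEPP1, whose product acts on autophagy and peroxisomal redox balance downstream of FOXO, is described without a test in the contrasts of shTST, since its fall there chose it. It was at 18.1, 16.4, 23.7 and 24.7 CPM in WT (587 to 804 counts), at 10.02, 8.48, 8.35 and 10.02 in shTST (253 to 302 counts) and at 19.2, 18.5, 23.5 and 22.6 in overTST (437 to 595 counts). All shTST libraries lay below every other library, and the WT libraries were spread more widely than those of the other groups. The mean was 20.7 ± 4.09 CPM in WT, 9.22 ± 0.931 in shTST and 20.9 ± 2.47 in overTST (SD, n = 4). The log2 difference of shTST was -1.16 against WT and -1.19 against overTST. Between overTST and WT, a contrast in which the WT libraries had also served to choose the gene, the log2 difference was 0.02 (95% interval -0.20 to 0.24, edgeR adjusted p = 0.885). The overlapping RASSF4 was at 61.5 to 65.7 CPM in WT, 62.0 to 67.0 in shTST and 63.9 to 69.5 in overTST, and its log2 difference from WT was 0.0084 in shTST (edgeR adjusted p = 0.926).

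**Figure D2:**
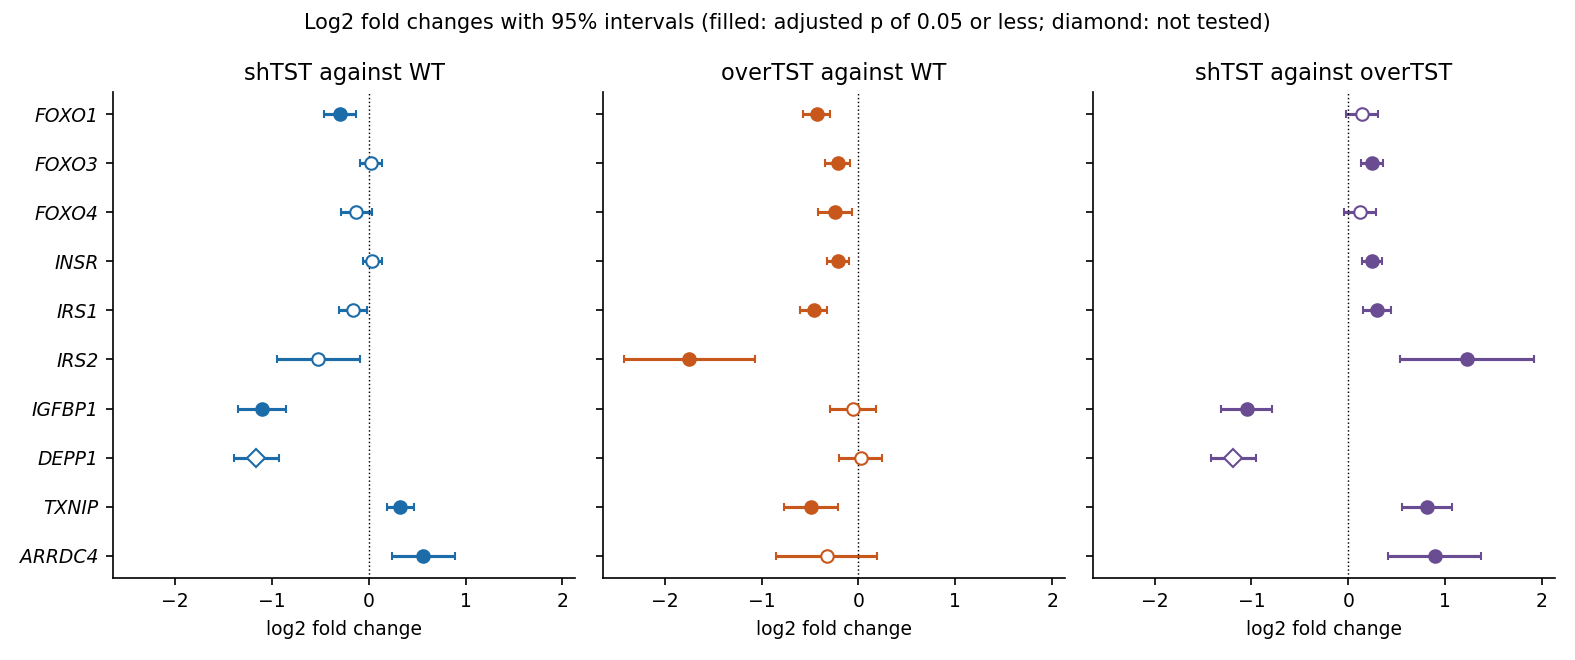
Log2 fold change of the 10 genes with 95% intervals in shTST against WT, overTST against WT and shTST against overTST; filled points passed an adjusted p of 0.05, open points did not, and the diamond marks DEPP1 where it was not tested. IGFBP1 and DEPP1 lie between -1.05 and -1.19 in both shTST contrasts and at -0.05 and 0.02 in overTST, while IRS2 reaches -1.75 in overTST.

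Among the 11562 genes whose log2 CPM averaged 1 or more, the profile of IGFBP1 over the 12 libraries was the most like that of DEPP1, with a root mean square difference of 0.218 in centred log2 CPM. The median gene differed from DEPP1 by 0.595 on this measure. PLAC8 (0.294), PHLDA2 (0.296), NPAS1 (0.306) and TST itself (0.307) were also among the nearest. Of the other members, FOXO1 was placed 4986 with 0.581, close to the median gene, and TXNIP and ARRDC4 were at 11552 and 11559, near the end of the ranking, while IRS2 was too low to be ranked. These likenesses describe 3 groups in 1 set of libraries and are not independent of the choice of DEPP1.

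**Figure D3:**
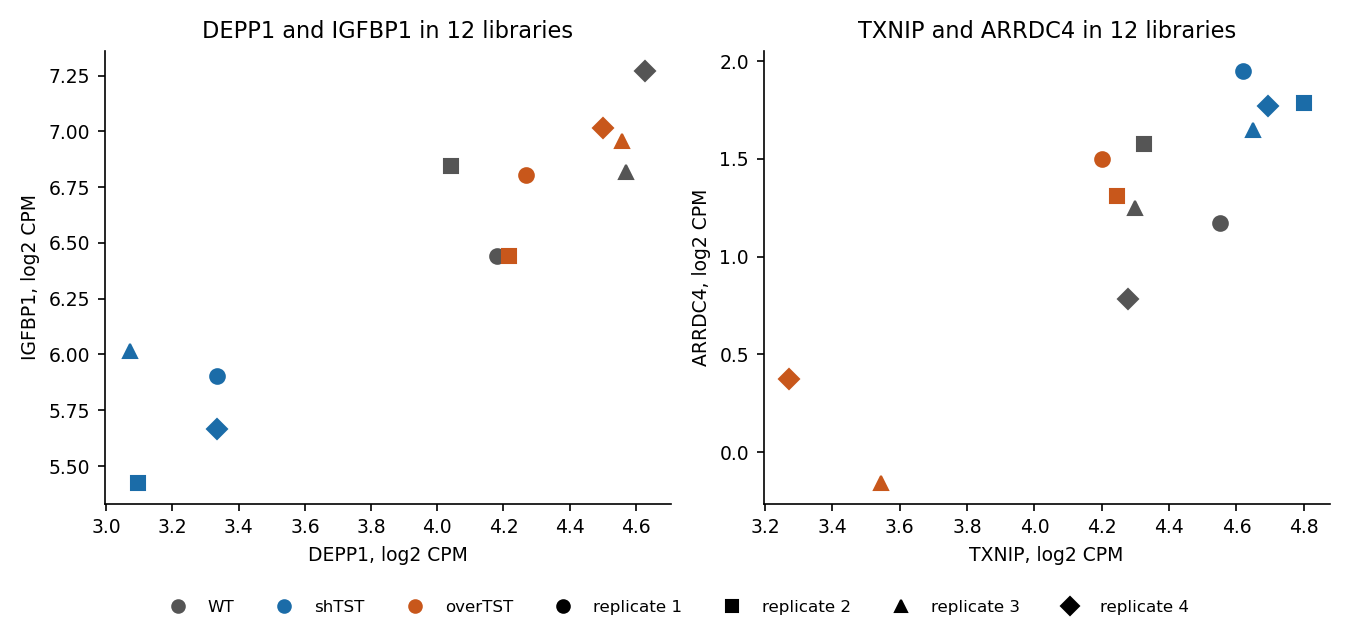
Log2 CPM of DEPP1 against IGFBP1 (left) and of TXNIP against ARRDC4 (right), with 1 point per library and colours for WT, shTST and overTST. In the left panel the 4 shTST points form the low corner and WT and overTST mix; in the right panel the shTST points are the high corner and overTST replicates 3 and 4 the low one.

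TXNIP, the alpha-arrestin that inhibits thioredoxin and draws glucose transporters from the cell surface, was at 23.4, 20.0, 19.6 and 19.3 CPM in WT and at 24.5, 27.8, 25.0 and 25.8 in shTST. All shTST values exceeded all WT values, the lowest by a narrow margin over WT replicate 1. TXNIP rose by 0.33 in log2 (SE 0.0687, 95% interval 0.18 to 0.47, edgeR adjusted p = 0.00262). In overTST the libraries were at 18.3, 18.9, 11.6 and 9.59 CPM, all below WT but in 2 distinct levels. The log2 difference from WT was -0.49 (SE 0.135, 95% interval -0.77 to -0.21, edgeR adjusted p = 0.00689), and it did not pass with DESeq2 (0.100) or limma-voom (0.0868). Between shTST and overTST the difference was 0.81 (SE 0.128, edgeR adjusted p = 3.9e-05), the shTST level being 75.7% higher.

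ARRDC4, the closest relative of TXNIP among the members, was a low transcript with 21 to 133 counts. It was at 2.18, 2.92, 2.31 and 1.66 CPM in WT, at 3.79, 3.38, 3.07 and 3.35 in shTST and at 2.76, 2.41, 0.829 and 1.23 in overTST. The shTST libraries were above all the others, and overTST overlapped WT, with replicates 3 and 4 low as for TXNIP. The log2 difference of shTST was 0.56 against WT (SE 0.158, 95% interval 0.24 to 0.89, edgeR adjusted p = 0.0172) and 0.89 against overTST (SE 0.233, adjusted p = 0.00438). The call against WT was lost without WT replicate 4 (adjusted p = 0.0616) or shTST replicate 1 (0.0602). In a fit of all 12 libraries together, with a shared estimate of spread, neither ARRDC4 (adjusted p = 0.0758) nor TXNIP (0.0688) passed for shTST against WT. In overTST the ARRDC4 difference was -0.33 (95% interval -0.85 to 0.19, adjusted p = 0.340), which did not pass.

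All 10 members passed the filter on low counts in the 3 comparisons. In shTST against WT, 4 of the 9 members other than DEPP1 were called at an adjusted p of 0.05 (edgeR), 2 higher and 2 lower, where 16.1% of all genes tested were called, 6.69% higher and 9.40% lower. The groups of 5 of the 9 did not overlap, 2 with shTST above and 3 with it below, against 19.1% of all genes, 8.37% above and 10.8% below. The fit of all 12 libraries called 2, both lower, where it called 2240 genes, 929 higher and 1311 lower. In overTST against WT, 7 of 10 were called and all 7 were lower, where 33.9% of all genes were called, 15.7% higher and 18.2% lower. These 7 were also those whose groups did not overlap, which held for 30.4% of all genes, 14.2% with overTST above and 16.2% with it below. With upper-quartile scaling 2700 genes were called higher and 2292 lower, in place of 2265 and 2628. DESeq2 and limma-voom called 6 members, also lower, and at an unadjusted p under 0.05 edgeR still had 0 members higher. Over all 19 alternatives 3979 to 5263 genes were called in this comparison. In shTST against overTST, 7 of 9 were called, 6 higher and 1 lower, where 33.0% of all genes were called, 16.9% higher and 16.1% lower. The same 7 did not overlap, against 29.2% of all genes, 14.5% above and 14.7% below. These shares of all genes are not matched for gene length. Of the 6 members called higher, IRS1, INSR and IRS2 have more than 8000 exonic bases, a class with a median log2 difference of 0.14 in this comparison. The median log2 difference of the members counted was -0.13, -0.29 and 0.25 in the 3 comparisons, and that of all genes lay within 0.0040 of 0 in each.

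Gene length moved with the contrasts of overTST, against WT and against shTST. The median log2 difference of overTST from WT was 0.21 over 905 genes with at most 1000 exonic bases, 0.10 over the 5420 genes up to 4000, -0.05 over the 5533 genes up to 8000 and -0.16 over the 2563 longer genes, of which 1067 were called lower and 173 higher. In shTST against WT the same classes had medians of 0.06, 0.02, -0.01 and -0.02. In shTST against overTST the medians were -0.14, -0.09, 0.05 and 0.14, so the longer classes were higher in shTST. IRS1 (9953 exonic bases), INSR (10451) and IRS2 (8138) belong to the longest class and FOXO1 (6232) and FOXO3 (7721) to the one before. With offsets that remove the length trend in each library, 5 members were called lower in overTST in place of 7, those lost being INSR and FOXO3. All genes called fell from 4893 to 4105 of 14421 in that fit, and those called lower from 2628 to 2058, while IRS2 remained at -1.48 or lower in log2 under every alternative tried. Fold changes of list genes given below are from fits without the length correction, unless stated.

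**Figure D4:**
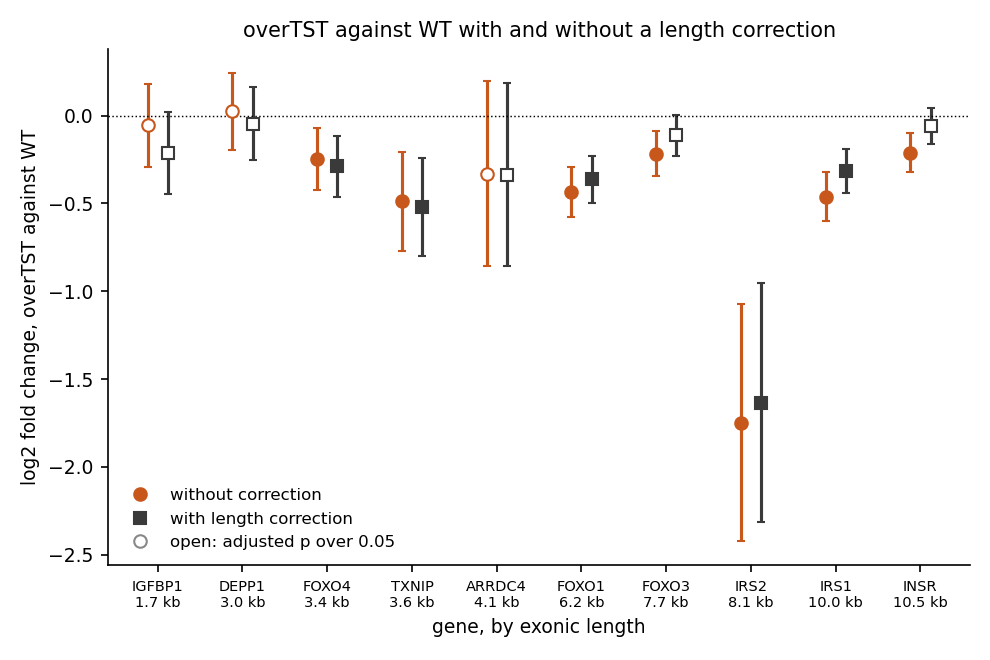
Log2 fold change of overTST against WT for the 10 genes, before and after removal of the length trend, plotted by exonic length in bases. INSR moves from -0.21 to -0.06 and FOXO3 from -0.22 to -0.11, and the shorter DEPP1 moves from 0.02 to -0.04.

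The wider insulin and IGF signalling pathway was taken from a list without the members, of which 42 of 46 genes were tested. In shTST 2 of them were higher and 14 lower than in WT (38.1% called against 16.1% of all genes), with a median log2 difference of -0.07. Without shTST replicate 1 the count was 9, and that of all genes was 1513 in place of 2346. TRIB3, a stress-induced pseudokinase that inhibits AKT, fell from 196 ± 8.61 to 155 ± 7.24 CPM (log2 -0.33, edgeR adjusted p = 6.22e-05). IGF2R, the receptor that clears IGF2, fell from 363 ± 19.1 to 298 ± 9.89 CPM, and SHC1, an adaptor of the RAS branch, from 225 ± 19.9 to 181 ± 7.76. PIK3R1, the regulatory subunit of phosphatidylinositol 3-kinase, was 0.17 higher in log2, a call lost in 8 of 19 alternatives. In overTST 5 were higher and 23 lower (66.7% called against 33.9%), and the median was -0.22. Once the length trend was removed 17 were called, where 4105 of 14421 genes were. IGF2R was at 255 ± 14.3 CPM in overTST (log2 -0.51, edgeR adjusted p = 1.71e-07). The catalytic subunit gene PIK3CB fell by 0.55 and MTOR, the kinase downstream of AKT, by 0.34. Over 19 alternatives IGF2R, PIK3CB and MTOR were at -0.32, -0.44 and -0.16 in log2 at the weakest, with their calls kept. IGFBP4, which binds the same growth factors as IGFBP1, was 0.24 higher, a call lost with the length trend removed. Between shTST and overTST, 19 were higher and 7 lower in shTST (61.9% called against 33.0%), with IGF2 at 4884 ± 490 against 3732 ± 188 CPM, and TRIB3, IGFBP4 and IGFBP6 lower by 0.43, 0.43 and 0.70 in log2.

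Of the FOXO target list 29 genes were tested, and in shTST 3 were higher and 2 lower (17.2% called against 16.1%). The cell-cycle inhibitor CDKN1A rose from 66.0 ± 6.39 to 81.7 ± 2.60 CPM (log2 0.31, edgeR adjusted p = 0.000951). The DNA-damage gene GADD45A rose by 0.32 and the stress-induced SESN1 by 0.33, and the mitophagy kinase PINK1 fell by 0.41. CDKN1A, GADD45A and SESN1 are also known targets of p53. In overTST 5 were higher and 8 lower (44.8% called against 33.9%), CDKN1A being 0.38 and SESN2 0.27 higher, and CITED2, PPARGC1A, the coactivator of gluconeogenic genes, and CCNG2 lower by 0.34, 0.43 and 0.55. The PPARGC1A call was lost in 1 of 19 alternatives. Between shTST and overTST 5 were higher and 4 lower (31.0% called against 33.0%), with BCL2L11, a promoter of apoptosis, 0.39 higher.

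Of 23 genes for FOXO regulators, 2 were higher and 1 lower in shTST (13.0% called against 16.1%). The ubiquitin ligase MDM2 rose from 90.1 ± 3.65 to 116 ± 2.74 CPM (log2 0.37, edgeR adjusted p = 1.22e-05) and SKP2, part of another ligase for FOXO1, by 0.28. In overTST 4 were higher and 6 lower (43.5% called against 33.9%), MDM2 again being higher, by 0.32, and the acetyltransferase genes EP300 and CREBBP lower by 0.42 and 0.36. Over the alternatives EP300 and CREBBP were at -0.24 and -0.16 in log2 at the weakest, with their calls kept. Between shTST and overTST 7 were higher and 6 lower (56.5% called against 33.0%), with the deacetylase gene SIRT1 0.40 higher and the nuclear exporter XPO1 0.34 higher.

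Among hepatic glucose and lipid genes under insulin control, 18 of 22 were tested, and in shTST 2 were higher and 5 lower (38.9% called against 16.1%, median -0.11). The gluconeogenic enzymes PC and PCK2 fell by 0.29 and 0.27, and GCKR, the glucokinase inhibitor, was at 2.94 ± 0.548 against 4.81 ± 0.811 CPM (log2 -0.71, edgeR adjusted p = 0.00272). In overTST 2 were higher and 7 lower of the 18 (33.9% of all genes called), with the fatty acid synthesis genes ACACB, ACACA and FASN lower by 0.61, 0.40 and 0.29. Over the alternatives these were at -0.42, -0.22 and -0.16 in log2 at the weakest, with their calls kept. The 2 higher genes were SREBF1, by 0.18, and G6PC3, by 0.22 (edgeR adjusted p = 0.00697 and 0.00225). Between shTST and overTST 3 were higher and 4 lower (38.9% called against 33.0%).

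The list around TXNIP and ARRDC4, of glucose-sensing factors, arrestin relatives and thioredoxin genes, had 18 of 19 genes tested. In shTST none was higher and 4 were lower (22.2% called against 16.1%). SLC2A1, the glucose transporter that TXNIP removes from the surface, fell from 1012 ± 132 to 653 ± 84.4 CPM (log2 -0.63, edgeR adjusted p = 2.84e-05), and ARRB1, a beta-arrestin, by 0.44. In overTST 3 were higher and 6 lower of the 18 (33.9% of all genes called), with SLC2A1 again lower, by 0.61, and thioredoxin itself (TXN) at 142 ± 5.83 against 109 ± 8.50 CPM (log2 0.39, edgeR adjusted p = 1.25e-05). SLC2A1 transcripts were lower in both modified lines, while TXNIP was higher than WT in shTST and lower in overTST. The TXNIP call was lost in 1 of 19 alternatives for shTST and in 2 of 19 for overTST. A link between SLC2A1 and TXNIP was not tested, and transcript counts do not measure the transporter at the surface. Between shTST and overTST none was higher and 7 were lower (38.9% called against 33.0%), with ARRB2 0.22 and TXN 0.25 lower, the latter a call lost with the length trend removed (log2 -0.11, edgeR adjusted p = 0.104). DESeq2 and limma-voom also called none of this list higher in shTST, and edgeR's unadjusted p was under 0.05 for 2 higher against WT and 3 higher against overTST.

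**Figure D5:**
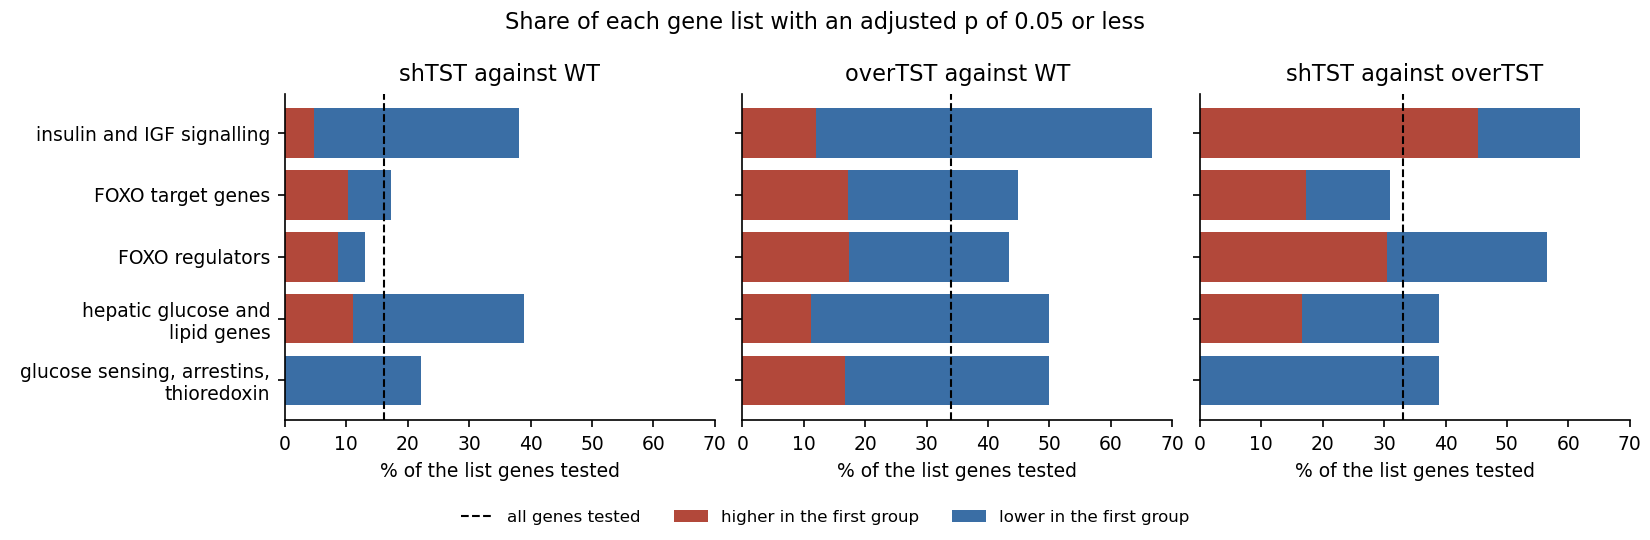
Percentage of tested genes called higher or lower in each gene list and comparison, members left out, with the percentage over all genes as a dashed line. The insulin and IGF signalling list stands highest above the line in overTST against WT (66.7% against 33.9%) and mostly on the lower side.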

How the data were processed

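RNA-seq of 12 HepG2 libraries was analysed from the deposited tables of read counts per gene, 1 per library. Per the labels, the authors extracted total RNA. Per the submitters' processing notes they used Trimmomatic 0.36, STAR 2.5.2b and featureCounts from Subread 1.5.2 with build GRCh38. The strand setting is not given in the sources used here, and no counts were pooled. The 57500 genes carry symbols for 56410, matched through gene name tables, and gene spans were checked against GENCODE 29.

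Genes were filtered with edgeR's filterByExpr and scaled by TMM. The comparisons of shTST and overTST with WT were each fitted on their 8 libraries, and shTST against overTST on all 12, with edgeR 4.0.16 (R 4.3.3), glmQLFit and glmQLFTest, two-sided, with no covariate and Benjamini-Hochberg adjustment over all genes tested. An adjusted p of 0.05 was the threshold. Intervals are 95% and use the fitted degrees of freedom. The scripts were tested on simulated data. Alternatives were DESeq2 1.42.0, limma-voom (limma 3.58.1), other scalings and filters, length and GC offsets, a replicate block and leaving out each library. Replicate libraries differed by more than sampling noise (chi-square per gene 3.58 to 35.3). Precision is limited by 5 to 133 counts a library for IRS2 and ARRDC4.

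The members and gene lists were chosen with earlier results of these data known, and the lists are described by counts only. Besides the members and TST, the text draws on up to 3 higher and 3 lower genes of each list and comparison, taken by p among called genes whose log2 CPM averaged at least 1 and whose groups did not overlap, and on the 5 genes with the profile closest to DEPP1, of which 1 is not reported here. RASSF4 was added for its overlap with DEPP1. The FOXO target list holds 31 genes matched by symbol. Promoter windows came from RefSeq (GRCh38.p14).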

Additional observations from a re-analysis of the deposited data

Results flagged for a closer look

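The FOXO1 level of overTST replicate 2 stood apart from its group. It was 19.7 CPM, where the other 3 overTST libraries were at 21.4 to 21.5, so that its gap to the nearest made up 0.927 of the group's range (critical value 0.829 for 4 samples). It was the only one of 30 groups of 4 tested over the members, and chance alone marks about 1 in 20 such groups. Left out, the FOXO1 difference of overTST from WT kept its direction and its call.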

How the results depend on the processing

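Under 19 alternatives per comparison, 112 counts of members or of all genes called stayed within 1.5 times of the reported one and 2 did not. The members called for shTST against WT were 2 with all 12 libraries in 1 fit in place of 4, and 3 to 5 with single libraries left out; the cause was not tested. All genes called there numbered 2346, 2240 with all 12 libraries in 1 fit, and 1513 to 2336 with single libraries left out, 1513 being without shTST replicate 1. The calls there were 41.6% higher, and 52.7% with upper-quartile scaling, and those of overTST against WT 46.3% and 54.1%. For overTST against WT the members called were 6 or 7, and for shTST against overTST 7 or 8, with single libraries left out. All genes called then ranged from 3979 to 5263 and from 3986 to 5265. DEPP1 in overTST against WT changed sign with the length correction (-0.045), the GC correction (-0.0064) and the replicate block with the length correction (-0.041), and ranged from -0.081 to 0.13 without single libraries. IGFBP1 in the same comparison was -0.21 with the length correction and ranged from -0.17 to 0.11 with single libraries left out, being 0.11 without WT replicate 4 and 0.05 without overTST replicate 2. RASSF4 was -0.0027 in shTST against WT with no filter and from -0.0085 to 0.031 without single libraries, and 0.024 in shTST against overTST with the GC correction. Other counts that moved were those of lists in shTST against WT. FOXO regulators went from 3 to 6 with DESeq2, 5 with upper-quartile scaling or the length correction and 7 with block and length correction, and the list around TXNIP from 4 to 7 (WT replicate 1 left out) or 2 (WT replicate 2 or shTST replicate 2 left out). The GC correction also used gene models of GENCODE 29. Whether replicate numbers pair the libraries was not settled. Correlations of deviations ran from -0.121 to 0.206 between same-numbered libraries and from -0.344 to 0.230 between differently numbered ones. The main fits used no pairing. With the replicate block 2980, 5166 and 5232 genes and 5, 7 and 7 members were called in the 3 comparisons, and FOXO targets in shTST went from 5 to 8. INSR lost its call in shTST against overTST with the length correction (edgeR adjusted p = 0.0681). Low counts limit IRS2 and ARRDC4 most.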
